A study of Zea mays with 6 samples.

Results

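The comparison described here is the difference between the maize varieties Tietar and DKC6575 in how leaf transcript signals differed between plants without irrigation and fully irrigated plants at silking (T2). Leaf RNA from the field was hybridized to 6 Affymetrix maize arrays, and 4 of them enter the comparison: Tietar T2 not irrigated (0% of field capacity), Tietar T2 fully irrigated (100%), DKC6575 T2 not irrigated and DKC6575 T2 fully irrigated. The other arrays are fully irrigated leaves of Tietar and of DKC6575 at the earlier eight-leaf stage (T1). DKC6575 carries the MON810 insertion, a transgene for an insecticidal Cry protein, and Tietar is its near-isogenic variety without it, so the transgene and any other difference between these commercial varieties cannot be told apart. There was 1 array per variety and condition. How the sampled plants entered each array is not given in the sources used here, and plants, plots and arrays cannot be told apart.

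For each probe set the drought change was the log2 signal of the not irrigated array minus that of the fully irrigated array. The difference between the varieties was the drought change in Tietar minus the drought change in DKC6575, so a positive value means a higher drought change in Tietar. Members were the probe sets with a signal of at least 64 on all 4 T2 arrays, which left 10021 of 17621 after the array's own control probe sets were put aside. Of the members, 1249 have a single gene name. With no replicate there is no error on any of these values, and all of them are descriptions of single arrays.

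Leaves that lose water accumulate abscisic acid, close their stomata and induce a set of protective proteins. These include dehydrins and other late embryogenesis abundant (LEA) proteins, which protect membranes and proteins during water loss, and small heat shock proteins, which hold unfolded proteins for refolding by larger chaperones. Transcription factors of the ERF and DREB family act upstream of many of these genes, and transcripts for photosynthesis are commonly reduced.

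The varieties differed in drought change by at least 2-fold at 267 members, which is 2.66% of them. The difference was at least 2-fold higher at 167 (1.67% of members) and at least 2-fold lower at 100 (0.998%). Over all members the difference had a median of 0.01 and an SD of 0.40, and it ranged from -2.22 to 2.97 on the log2 scale. It was above 0 at 5196 of the 10021 members. These shares over all members are the background for the counts of each gene list below. The drought change itself was wider in Tietar, with an SD of 0.44, than in DKC6575, with an SD of 0.29. The absolute drought change was larger in Tietar than in DKC6575 at 142 of the 167 and at 82 of the 100. These members were chosen by the same signals, so these counts and the medians that follow partly restate the choice. The median drought change of the 167 was 1.09 in Tietar and -0.13 in DKC6575, and that of the 100 was -1.12 in Tietar and 0.21 in DKC6575.

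**Figure D1:**
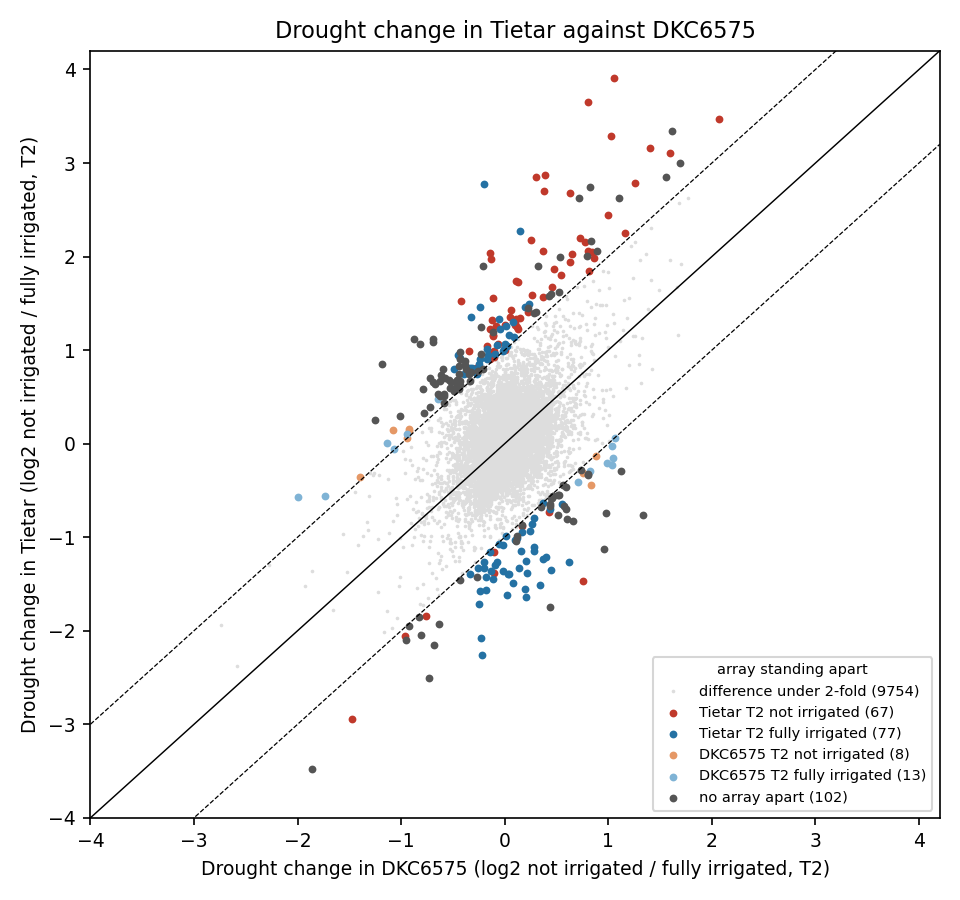
Drought change in Tietar (vertical axis) against drought change in DKC6575 (horizontal axis), both as log2 of not irrigated over fully irrigated at T2, for the 10021 members. The solid line marks equal change and the dashed lines a 2-fold difference, and colours give the array that stood apart at the 267 members beyond them.

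For each member the array that carried the difference was recorded. An array was called apart when its gap to the nearest of the other 3 log2 signals was larger than the range of those 3. Among the 167 higher differences, the not irrigated Tietar array was apart at 59, on the high side, and the fully irrigated Tietar array was apart at 32, on the low side. Among the 100 lower differences, the fully irrigated Tietar array was apart at 45, on the high side, and the not irrigated Tietar array at 8, on the low side. The side follows from the sign of the difference and the definition of apart, so it is not a separate observation. The DKC6575 arrays were apart less often, the not irrigated one at 8 and the fully irrigated one at 13 of the 267. No array was apart at 102, of which 48 higher and 26 lower differences had a crossed pattern, with the 2 higher signals in different varieties and different waterings. A large difference of drought changes favours that pattern, so these counts partly restate the choice. Of the 267, the not irrigated Tietar array was apart at 25.1% and the fully irrigated one at 28.8%. Of all 10021 members, the not irrigated Tietar array was apart at 12.95%, the fully irrigated Tietar array at 21.1%, the not irrigated DKC6575 array at 6.86% and the fully irrigated DKC6575 array at 10.1%. At 49.0% of all members no array was apart.

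**Figure D2:**
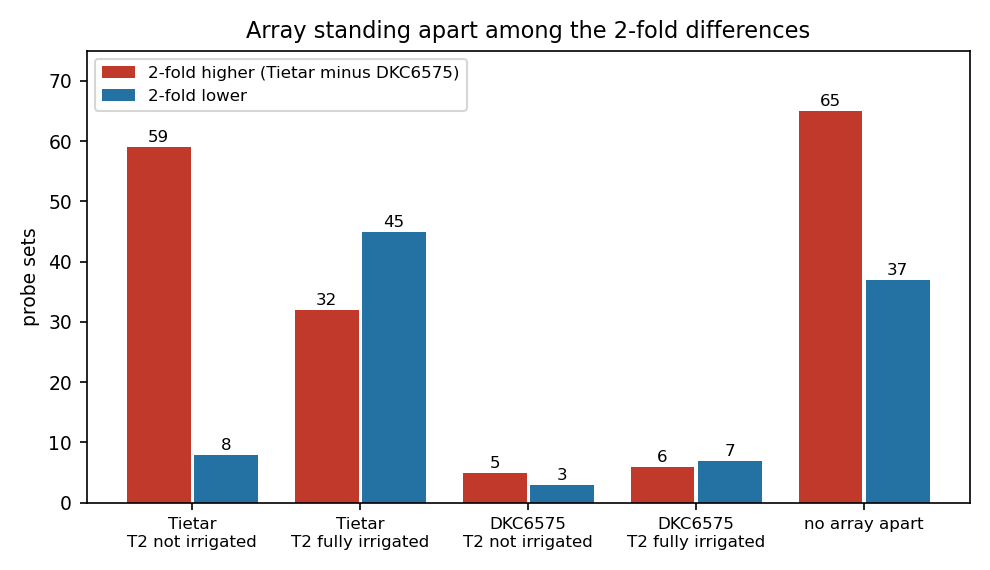
Number of probe sets with a 2-fold higher (red) or 2-fold lower (blue) difference, by the array that stood apart. The not irrigated Tietar array led the higher differences with 59, and the fully irrigated Tietar array led the lower ones with 45.

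Heat shock proteins had higher drought changes in Tietar than in DKC6575. Of 21 probe sets matched to this list, 15 were members. Of these, 4 were at least 2-fold higher and 0 lower, against 1.67% and 0.998% of all members. The difference was above 0 at 14 of 15, against 5196 of 10021 over all members, with a median of 0.54 against 0.01. The median drought change of the list was 1.12 in Tietar and 0.43 in DKC6575. The not irrigated Tietar array was apart at 8 of 15, against 12.95% of all members. The median of the list was 0.61 after cyclic loess and 0.60 after quantile normalization, with the same counts of 4 higher and 0 lower.

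The small heat shock protein hsp18f had signals of 2519 not irrigated and 364 fully irrigated in Tietar, against 738 not irrigated and 310 (309.6) fully irrigated in DKC6575. Its drought change was 2.79 in Tietar and 1.25 in DKC6575, a difference of 1.54. The fully irrigated varieties were close, and both not irrigated arrays were higher, that of Tietar most. At T1 its signals were 649 in Tietar and 310.2 in DKC6575, so the fully irrigated varieties differed more at the earlier stage. With each variety's own T1 array as the baseline, its difference was 0.71. The gene lies on chromosome 3 from 8819932 to 8820870 of the B73 reference assembly.

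The related hsp18a had signals of 2532 not irrigated and 554 fully irrigated in Tietar, against 1080.5 not irrigated and 651 fully irrigated in DKC6575, a difference of 1.46. Heat shock protein18c, from the same probe set cluster as hsp18f, had 356 and 90.0 in Tietar against 118 and 64.9 in DKC6575, not irrigated first, a difference of 1.12. A low molecular weight heat shock protein precursor (hsp22) had 3698 not irrigated and 463 fully irrigated in Tietar, against 1527 not irrigated and 473 fully irrigated in DKC6575, a difference of 1.31. For these 4, which are those past 2-fold, the not irrigated Tietar array was the highest of the T2 arrays and the not irrigated DKC6575 array the next.

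The list held 3 further probe sets for small heat shock proteins, none of them 2-fold. The chloroplast small heat shock protein had a difference of 0.68, and the probe sets annotated as class I heat shock proteins had 0.32 and 0.23. Among larger chaperones, heat-shock protein 101, which pulls aggregated proteins apart, had 1208 not irrigated and 403 fully irrigated in Tietar, against 663 not irrigated and 439.7 fully irrigated in DKC6575, a difference of 0.99 that falls just under 2-fold. Mitochondrial chaperonin-60 had a difference of 0.70. The heat shock cognate 70 kDa protein 2 had a difference of 0.54. The 3 probe sets of hsp70-5 had differences of -0.00, 0.07 and 0.19, and both varieties had lower signals without irrigation there.

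LEA proteins and dehydrins were split. Of 15 probe sets on the array 7 were members, 1 of them 2-fold higher and 0 lower, with a median difference of 0.20. Dehydrin COR410, an acidic dehydrin, had 874 not irrigated and 264 fully irrigated in Tietar, against 396 not irrigated and 363 fully irrigated in DKC6575. Its drought change was 1.73 in Tietar and 0.12 in DKC6575, and the not irrigated Tietar array lay above all 5 other arrays. At T1 its signals were 426 in Tietar and 403 in DKC6575.

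The abscisic stress protein homolog was higher without irrigation in both varieties, by 0.98 in Tietar and 0.54 in DKC6575, a difference of 0.43. The Asr protein had the opposite sign, with drought changes of -0.84 in Tietar and -0.20 in DKC6575. Dehydrin1, which the study followed as its stress-responsive gene, was not a member. Its signals were 97.7 not irrigated and 45.1 fully irrigated in Tietar, against 33.8 not irrigated and 23.6 fully irrigated in DKC6575, so only 1 of the 4 reached 64 and its difference of 0.60 rests on dim signals.

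Transcription factors of the ERF and DREB family had 5 members of 10 probe sets, 1 of them 2-fold higher, and all 5 differences were above 0, with a median of 0.55. Ethylene-responsive transcription factor 4 had 2376 not irrigated and 277 fully irrigated in Tietar, against 762 not irrigated and 253 fully irrigated in DKC6575. That is a drought change of 3.10 in Tietar and 1.59 in DKC6575, and a difference of 1.51. DRE binding factor 1, which binds the dehydration-responsive element, had a difference of 0.57, and ethylene-responsive element binding protein 2 one of 0.55. NAC1 transcription factor had 962 not irrigated and 269 fully irrigated in Tietar, against 483 not irrigated and 250.3 fully irrigated in DKC6575, a difference of 0.89. In these 4 factors the not irrigated Tietar array was apart on the high side. Other transcription factor lists did not share this direction. Of the 2 NAC and WRKY members only NAC1 was above 0, and NAC domain-containing protein 68 had a difference of -0.37. Among 4 MYB members 1 was above 0, with a median of -0.096. Among 4 bZIP members 2 were above 0, with a median of -0.10.

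Several single genes outside the lists above also had high differences. The ZIM motif family protein, of the family that holds the jasmonate repressors, had 738 not irrigated and 75.6 fully irrigated in Tietar, against 205 not irrigated and 100.2 fully irrigated in DKC6575, a difference of 2.26. At T1 it had 532 in Tietar and 252 in DKC6575, so the fully irrigated signals at T2 were below those at T1 in both varieties. No other of the 10 jasmonate and ZIM members reached 2-fold, and the median of that list was -0.09.

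CCD1, annotated as a calcium-binding protein with EF hands, had 1994 not irrigated and 179 fully irrigated in Tietar, against 348 not irrigated and 83.0 fully irrigated in DKC6575. Its drought change of 3.48 in Tietar and 2.07 in DKC6575 gave a difference of 1.41. At T1 it stood at 1982 in Tietar and 468 in DKC6575, so the not irrigated Tietar array was close to its own T1 array, and Tietar was the higher variety in every condition. The list of calcium-binding proteins did not share this direction, with 2 of 22 members higher, 2 lower, 10 differences above 0 and a median of -0.0064. An NPK1-related protein kinase had 399 and 73.5 in Tietar against 134 and 67.1 in DKC6575, not irrigated first, a difference of 1.44. Harpin inducing protein had a difference of 1.32, with a not irrigated Tietar signal of 1706 close to the Tietar T1 signal of 1640. Satase isoform II, a serine acetyltransferase of cysteine synthesis, had a difference of 1.37.

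Defence proteins had 14 members of 21 probe sets, 4 of them 2-fold higher and 0 lower, with a median difference of 0.58 and 11 of 14 above 0. The median was 0.51 after cyclic loess and 0.52 after quantile normalization. A pair of probe sets for one defense-related protein had differences of 1.92 and 1.46. The first read 712 not irrigated and 157 fully irrigated in Tietar, against 284 not irrigated and 238 fully irrigated in DKC6575. The wound responsive protein-like gene went the other way, with drought changes of -1.38 in Tietar and -0.42 in DKC6575 and a difference of -0.96.

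The highest difference of all named members belonged to the beta-D-glucosidase precursor glu2, of the enzyme family that releases benzoxazinoid defence compounds from their glucosides. Its signals were 575 not irrigated and 83.8 fully irrigated in Tietar, against 275 not irrigated and 315 fully irrigated in DKC6575. The difference of 2.97 was carried by the fully irrigated Tietar array, which was apart on the low side, while DKC6575 had a drought change of -0.20. At T1 both varieties were far brighter, with 1312 in Tietar and 2081 in DKC6575. The gene lies on chromosome 10 from 38458495 to 38463293 of the B73 assembly. Of the 4 benzoxazinoid members, 2 were 2-fold higher and 1 lower, and the probe sets for bx6, a dioxygenase of the pathway, had differences of 1.17 and 0.79. A further member of the bx6 probe set cluster had a difference of -0.33.

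Phenylalanine ammonia-lyase, the first enzyme of phenylpropanoid synthesis, had 931 not irrigated and 302 fully irrigated in Tietar, against 643 not irrigated and 446 fully irrigated in DKC6575, a difference of 1.09. The other members of its probe set cluster had differences of 0.15 and 0.69. Metallothionein2, a small metal-binding protein, had 315 and 125 in Tietar against 148 and 137 in DKC6575, not irrigated first, a difference of 1.22, carried by a high not irrigated Tietar array. At T1 it had 309 in Tietar and 171 in DKC6575, so that array was close to the Tietar T1 array. Among 6 members for proline, choline and betaine synthesis 0 were 2-fold, against 2.66% of all members, and 5 differences were above 0. P5cs, which makes proline, had 359 not irrigated and 170.2 fully irrigated in Tietar, against 267 not irrigated and 167 fully irrigated in DKC6575, a difference of 0.40. Viviparous14, the carotenoid cleavage enzyme of abscisic acid synthesis, had 199.6 and 118 in Tietar against 129 and 116 in DKC6575, not irrigated first, a difference of 0.60. These 4 genes were higher without irrigation in both varieties, with the higher value in Tietar.

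Other genes whose higher difference came from a low fully irrigated Tietar array were loricrin, with 202 not irrigated and 79.1 fully irrigated in Tietar, against 129 not irrigated and 162 fully irrigated in DKC6575, and the MYB-IF35 transcription factor. MYB-IF35 had 221 and 118 in Tietar against 217 and 256 in DKC6575, not irrigated first, so the not irrigated arrays were nearly equal and its difference was 1.14. Differences carried by DKC6575 were rarer. The PVR3-like protein of 1 probe set cluster had 146 not irrigated and 216 fully irrigated in Tietar, against 140.3 not irrigated and 561 fully irrigated in DKC6575, where the fully irrigated DKC6575 array was apart on the high side. A further probe set of that cluster had a difference of 1.18 with the same array apart. CBL-interacting protein kinase 15 had 1015.5 and 949 in Tietar against 735 and 1409 in DKC6575, not irrigated first, a difference of 1.04 carried by the same array.

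**Figure D3:**
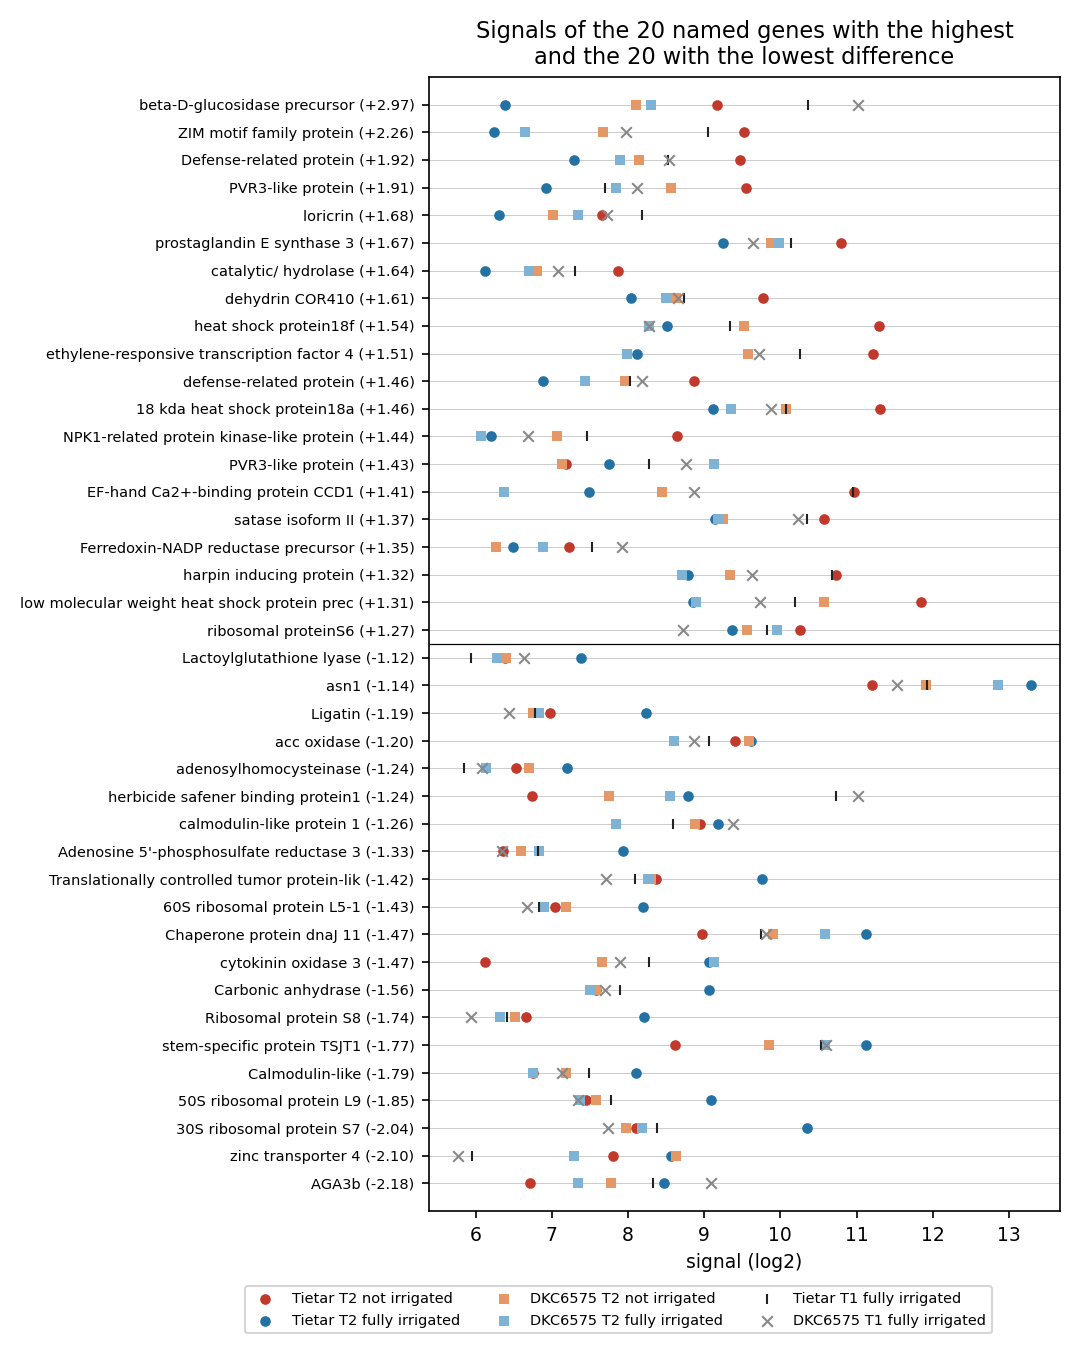
Log2 signals on the 6 arrays for the 20 named members with the highest and the 20 with the lowest difference, which stands in parentheses after each name. Circles are Tietar T2, squares DKC6575 T2, with the not irrigated arrays in red and orange and the fully irrigated arrays in blue and light blue, and the bar and the cross are the T1 arrays. In the upper rows the red circle is usually rightmost of the 4 T2 arrays, and in many lower rows the blue circle stands alone on the right.

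Photosynthesis transcripts had lower drought changes in Tietar as deposited, and for light harvesting the difference was smaller after the normalizations that depend on signal level. Of 12 members for light harvesting and photosystems, 10 had a difference below 0 (2 above), 0 were 2-fold in either direction, and the median difference was -0.33. The median drought change of the list was -0.61 in Tietar and -0.25 in DKC6575, and the fully irrigated varieties differed by a median of 0.19 while the not irrigated ones differed by -0.14. The median difference was -0.36 with each array centred on its median, -0.15 after cyclic loess and -0.05 after quantile normalization. These are among the brightest probe sets of the arrays. Cab-m7, a chlorophyll a-b binding protein, had 14061 not irrigated and 22142 fully irrigated in Tietar, against 15136 not irrigated and 17829 fully irrigated in DKC6575. Its difference was -0.42 as deposited and -0.074 after quantile normalization, and the varieties stood at 22762 in Tietar and 23292 in DKC6575 at T1. Here the fully irrigated Tietar array was close to the T1 arrays, and the other 3 were lower.

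For C4 photosynthesis and the Calvin cycle, 13 of 17 probe sets were members, 1 was 2-fold lower, and the difference was above 0 at only 1, with a median of -0.37 as deposited, -0.34 after cyclic loess and -0.15 after quantile normalization. PEP carboxylase (pep1), which fixes carbon in mesophyll cells, had 13901 not irrigated and 24718 fully irrigated in Tietar, against 15679 not irrigated and 18104 fully irrigated in DKC6575, a difference of -0.62 as deposited and -0.26 after quantile normalization. The small subunit of Rubisco (rbcS) had a difference of -0.37, and NADP-malic enzyme (me3) one of -0.51. For psaN, a photosystem I subunit, the difference was -0.53 as deposited and 0.023 after quantile normalization, so its sign turned. Of the 2 light harvesting members above 0, a probe set of lhcb6 had a difference of 0.013. The other was chlorophyll a-b binding protein 2, with 106.5 and 408 in Tietar against 175 and 1169 in DKC6575, not irrigated first, where DKC6575 had the larger reduction and the difference was 0.80.

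Among the clearly lower members was a probe set with the symbol asn1. Its title names asparagine synthetases 1 and 3, which make asparagine, so its signal may come from either. It had 2347 (2347.5) not irrigated and 10031 fully irrigated in Tietar, against 3846 not irrigated and 7441 fully irrigated in DKC6575. The drought change was -2.10 in Tietar and -0.95 in DKC6575, a difference of -1.14, with the T1 arrays at 3880 (3879.6) in Tietar and 2958 in DKC6575. Stem-specific protein TSJT1 had 392.2 and 2225 in Tietar against 924 and 1533 in DKC6575, not irrigated first, a difference of -1.77. Both probe sets were lower without irrigation in both varieties, more so in Tietar.

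Cytokinin oxidase 3, an enzyme that degrades cytokinins, had 69.3 not irrigated and 535 fully irrigated in Tietar, against 202 not irrigated and 561 fully irrigated in DKC6575. Its difference was -1.47 and the not irrigated Tietar array was apart on the low side, but a brighter probe set of the same gene had a difference of 0.34. The chaperone protein dnaJ 11 had 504 and 2237 in Tietar against 955 and 1531 in DKC6575, not irrigated first, a difference of -1.47. AGA3b had 105 and 354 in Tietar against 219 and 162 in DKC6575, not irrigated first, a difference of -2.18.

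Some lower differences were carried by a low fully irrigated DKC6575 array. Acc oxidase, which makes ethylene, had 679 not irrigated and 784 fully irrigated in Tietar, against 772 not irrigated and 389 fully irrigated in DKC6575, a difference of -1.20. A calmodulin-like protein 1 probe set had 493 and 578 in Tietar against 471 and 230 (229.99) in DKC6575, not irrigated first, a difference of -1.26. An adhesive/proline-rich protein had a difference of -1.12. For these 3 genes the other 3 T2 arrays were within a narrow range of each other.

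**Figure D4:**
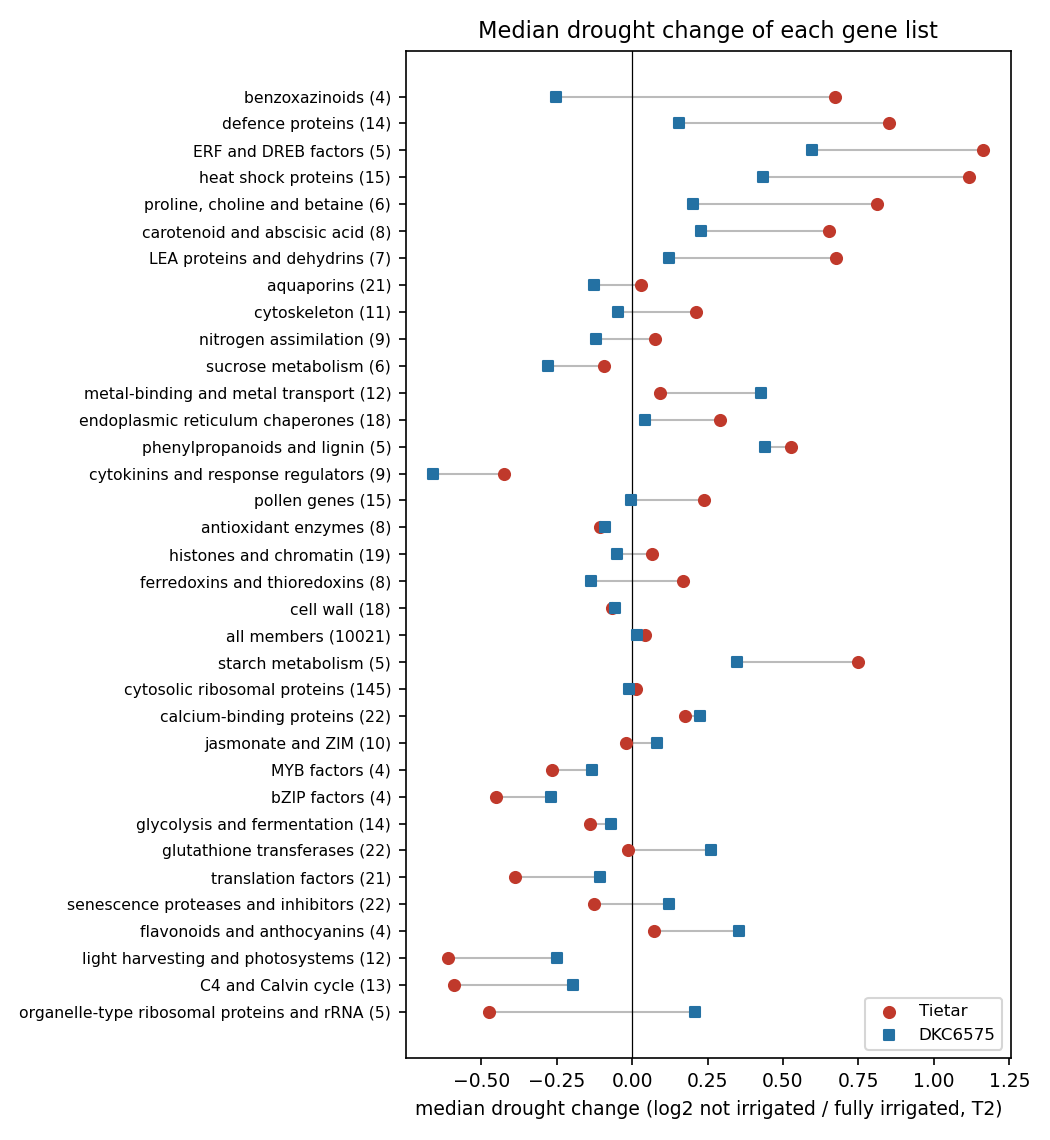
Median drought change in Tietar (red circles) and DKC6575 (blue squares) of the members of each gene list with at least 4 members, ordered by the median difference, with the number of members in parentheses. Heat shock proteins stood at 1.12 in Tietar and 0.43 in DKC6575, and light harvesting and photosystems at -0.61 in Tietar and -0.25 in DKC6575, all as deposited. The light harvesting gap of -0.33 was -0.05 after quantile normalization.

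Many of the remaining lower differences came from dim probe sets with a high signal on the fully irrigated Tietar array alone. The 30S ribosomal protein S7 had 274 not irrigated and 1310 (1309.8) fully irrigated in Tietar, against 250.3 not irrigated and 291 fully irrigated in DKC6575, a difference of -2.04. The T1 arrays read 333 in Tietar and 213 in DKC6575. The same shape was seen for the 50S ribosomal protein L9, with 175 and 545 in Tietar against 190.5 and 165 in DKC6575, not irrigated first. A carbonic anhydrase probe set had 191 and 535 in Tietar against 192 and 182 in DKC6575, not irrigated first, a difference of -1.56, while 4 other members of its cluster, with mean signals from 11959 to 20653, had differences from -0.50 to 0.16.

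These members were compared with other probe sets of the same cluster. Of the 45 lower members with the fully irrigated Tietar array apart, 32 share a cluster with other members, 88 in all. None of those 88 was 2-fold lower, their median difference was -0.04, and their median mean signal was 3039 against 217 for the 45. The 88 leave out the 45 themselves, so a cluster partner that was 2-fold lower with the same array apart could not be among them. A pair of the 45 that share a cluster had differences of -1.47 and -1.30. At 44 of the 45 the fully irrigated Tietar array lay outside the range of all 5 other arrays, T1 included. Across the 45 the median excess of that array over its own T1 array was 1.18, and over the fully irrigated DKC6575 array 1.30, while the not irrigated arrays differed by -0.03.

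The letter before the last number of a probe set ID gives the orientation of the design sequence, and 1755 design sequences carry probe sets in both orientations, which read opposite strands. The dimmer probe set of the pair was a member in 55 cases, at a median of 3.89 log2 units under its partner. Of these 55, 24 were 2-fold lower and 0 higher, against 0.998% of all members lower. The 55 brighter partners were all members too, and 0 of them were 2-fold in either direction. In the dimmer probe sets Tietar was above DKC6575 by a median of 1.02 on the fully irrigated arrays, of 0.14 on the not irrigated arrays and of 0.12 at T1. In the brighter partners the same medians were -0.08, -0.02 and -0.01.

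Calmodulin shows the pattern. The dimmer probe set had 108 not irrigated and 274 fully irrigated in Tietar, against 146 not irrigated and 107 fully irrigated in DKC6575, and a difference of -1.79. The brighter one had 2330 (2329.6) and 2571 in Tietar against 3001 and 2475 in DKC6575, not irrigated first, and a difference of -0.42. For 48 of the 55 dimmer probe sets the fully irrigated Tietar array was the highest of all 6 arrays. Without the 55, the lower differences numbered 76 and the higher ones 167. What raised signals of the dimmer orientation on that array was not tested.

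**Figure D5:**
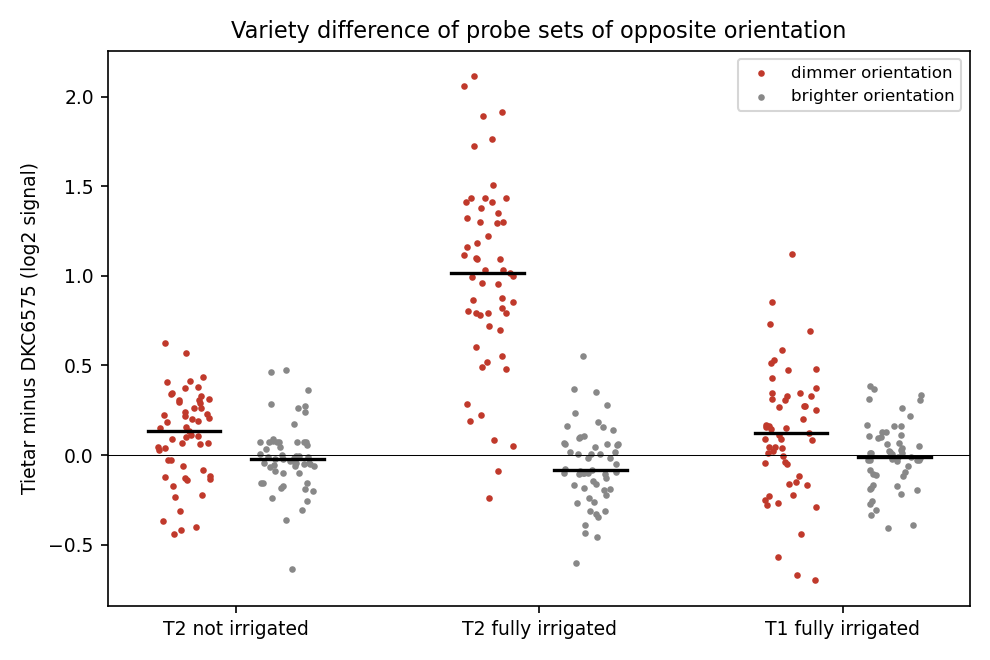
Tietar minus DKC6575 (log2 signal) on the not irrigated T2, the fully irrigated T2 and the T1 arrays for the 55 design sequences with probe sets in both orientations and the dimmer one a member, with the dimmer probe set in red, the brighter one in grey and black bars at the medians. The dimmer probe sets are shifted to a median of 1.02 on the fully irrigated T2 arrays, where the brighter ones stay at -0.08.

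The T1 arrays, which the choice of members did not use, gave a measure of how far the varieties lie apart without drought. Over the members the variety difference had an SD of 0.26 on the not irrigated arrays, 0.30 on the fully irrigated arrays and 0.28 at T1. When each variety's own T1 array replaced its fully irrigated T2 array as the baseline, 149 of the 167 and 82 of the 100 kept their sign, and 38 of the 167 and 16 of the 100 were still at least 2-fold. These values share the not irrigated arrays with the main difference. Among the 59 members led by the not irrigated Tietar array, Tietar was already above DKC6575 at T1 in 46, by a median of 0.43 over the 59, and the Tietar T1 signal was at or above the not irrigated one in 10.

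Dim probe sets gave more 2-fold differences than bright ones. Of the 1077 members of the dimmest class, with a mean signal under 2 times the limit, 4.27% were at least 2-fold, against 0.947% of the 1373 members of the brightest class. Of 142 members whose lowest signal was between 64 and 68, 17 were at least 2-fold, and of 127 probe sets just outside, with a lowest signal between 60 and 64, 16 were. Among all 7600 probe sets left out, 3680 were at least 2-fold.

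As whole-array facts, the 2% trimmed mean was between 500.19 and 500.27 on all 6 arrays, since signals were scaled as a whole. The 27 hybridization control probe sets at or above 64 had a median difference of -0.03, and 0 of them reached 2-fold. Their differences had an SD of 0.20 and ranged from -0.30 to 0.59, so single controls reached the size of the list medians above. The log2 ratio of 3-prime to 5-prime signals of actin was 4.25 not irrigated and 4.67 fully irrigated in Tietar, against 4.28 not irrigated and 4.57 fully irrigated in DKC6575. For GAPDH, ubiquitin and EF1-alpha the ratios were 1.88, 1.98 and 2.89 on the fully irrigated Tietar array. On the fully irrigated DKC6575 array they were 1.73, 1.77 and 2.82. All of these ratios were lower without irrigation in both varieties, and the fully irrigated Tietar array had the highest of the T2 arrays. For ubiquitin and EF1-alpha both T1 arrays were higher still. The part of these ratios in the differences was not tested. Of 21 leaf photosynthesis markers, 17 or 18 reached 64 on each array, and 0 of 12 seed markers reached 64 on either Tietar T2 array and 1 on each DKC6575 T2 array. ABP3, an actin binding protein that the study used as a reference gene, had differences of -0.39, -0.36 and -0.31 at its 3 probe sets as deposited, and of -0.16, -0.17 and -0.18 after quantile normalization. All 9 pollen markers were above 64 on the 4 T2 arrays and 0 at T1, with summed signals of 1524 and 1474 in Tietar against 3069 and 2838 in DKC6575, not irrigated first. Pollen markers thus differed by variety and stage more than by watering, and 0 of 15 members of the pollen gene list were 2-fold, against 2.66% of all members.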

How the data were processed

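Leaf RNA of Tietar and DKC6575 was hybridized to Affymetrix maize arrays, 1 per variety and condition. The methods name RMA for extraction and Partek for analysis. The deposited intensities are linear and share a trimmed mean of 500.19 to 500.27 per array, which is not the form RMA gives (log2 values made alike in distribution), so the step that made them is not settled by the sources used here. Dim signals are less compressed in such values than after RMA, which bears on the 2-fold counts. Signals were converted to log2 without further normalization. The differences are of 4 single arrays, so no p was computed and precision is limited by the number of arrays. Members, gene lists and named genes were chosen with earlier results of these data known.

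Names came from the platform annotation, updated through a B73 reference gene table, and from gene titles of a supplementary table whose genes were selected on these arrays. In all 1979 of 17621 probe sets were named, 1452 with 1 platform symbol. The 36 gene lists are patterns in names, and wrong matches (such as the white cap gene wc1 among calcium-binding proteins) were left out by name after matching. A gene can count more than once. Named are the 20 highest and 20 lowest differences, 5 for each array that stood apart, up to 4 of each list, and genes the study names. The text shows a selection of these, and its comparison of orientations and clusters was added after the values were seen.

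Alternatives were fold thresholds of 1.5 and 3, signal filters of 32, 128 and none, control probe sets kept, median centring, cyclic loess and quantile normalization (limma 3.58.1 in R 4.3.3), 1 probe set per cluster, other baselines and other gaps. Tables were handled in pandas 2.3.3 under Python 3.11.15. The procedure was tested on simulated data, with shifts of single arrays in bright probe sets and a narrower spread than in these data. That setting cannot show how many calls in these data are false. Promoter sequences were not analysed here.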

Additional observations from a re-analysis of the deposited data

Results flagged for a closer look

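The drought changes of the varieties ran in opposite directions by at least 1.5-fold in each at a few members. At 11 probe sets the signal was at least 1.5-fold higher without irrigation in Tietar and 1.5-fold lower in DKC6575, and at 8 it was lower in Tietar and higher in DKC6575. The difference between the varieties was not tested, since each value is 1 array.

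Among the 11, 1 has a name. The ferredoxin-NADP reductase precursor had 149 not irrigated and 89.5 fully irrigated in Tietar, against 76.9 not irrigated and 118 fully irrigated in DKC6575, a difference of 1.35. A further probe set of its cluster had a difference of 0.42. Among the 8, zinc transporter 4 had 223 not irrigated and 377 fully irrigated in Tietar, against 395 not irrigated and 157 fully irrigated in DKC6575, a difference of -2.10. Its T1 signals were 61.6 in Tietar and 54.4 in DKC6575. A brighter probe set named zinc transporter 4 had 2639 and 3359 in Tietar against 3156 and 2503 in DKC6575, not irrigated first, a difference of -0.68.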

How the results depend on the processing

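Against 167 higher and 100 lower differences, the counts were 717 and 403 at a fold of 1.5, 29 and 18 at a fold of 3, 90 and 56 with signals of at least 2 times 64, and 1579 and 2368 with no filter. With signals of at least 32 there were 195 lower differences, and with 1 probe set per cluster 58. With the mean of both fully irrigated T2 arrays as the baseline they were 57 and 38, which is the difference between the not irrigated arrays alone. With T1 baselines 80 were higher, and, chosen after seeing the data, 60 higher and 34 lower with 64 reached on all 6 arrays. The SD of 0.40 was 0.35 with 2 times 64 and 1.31 with no filter. The share of 28.8% with the fully irrigated Tietar array apart was 18.8% with 1 probe set per cluster, 19.9% and 38.2% with a gap of 2 and of 0.5 times the range, and 22.2% without the dimmer orientation (also chosen after seeing the data).

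Cyclic loess and quantile normalization turned no sign among named genes past 2-fold, and gave 148 higher and 123 lower, and 147 higher and 122 lower. Their effect on the photosynthesis lists, added after seeing the data, stands with those lists. Of 161 named differences, 90 moved by more than the SD of the variety difference at T1 (0.28) with the mean baseline, besides 7 that reversed, and 109 with T1 baselines, besides 8, while 64 and 44 stayed within it. A reversal was counted only where the main difference was at least 2-fold, and only those are named below. Smaller differences that changed sign stand among the other counts, such as DRE binding factor 1 (0.57 to -0.10 with T1 baselines). With the mean baseline, the sign reversed for the 30S ribosomal protein S7 (0.13), ribosomal protein S8 (0.15), the translationally controlled tumor protein-like protein (0.067), calmodulin-like protein 1 (0.066), Ligatin (0.22), an elongation factor 1 alpha probe set (0.11) and a PVR3-like protein (-0.58). With T1 baselines it reversed for calmodulin-like protein 1 (0.85), adenosylhomocysteinase (0.072), lactoylglutathione lyase (0.67), the adhesive/proline-rich protein (0.22), the same elongation factor 1 alpha probe set (0.16), a defence-related protein (-0.60), MYB-IF35 (-0.021) and ribosomal protein S6 (-0.43). The cause was not tested. No paired analysis was possible because the result comes from no test and each group has 1 array, whose number limits the precision.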

Other observations

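Aquaporins, the water channels of membranes, had 21 members of 34 probe sets, with 15 differences above 0 and a median of 0.19, and 0 were 2-fold. Plasma membrane intrinsic protein2 came nearest, with 323 not irrigated and 110.4 fully irrigated in Tietar, against 259 not irrigated and 171 fully irrigated in DKC6575, a difference of 0.95. Glutathione transferases, which detoxify by conjugation, had 22 members with a median of -0.20, and 8 differences were above 0. Cysteine proteases and their inhibitors, many of them linked to leaf senescence, had 22 members with a median of -0.27, and 6 were above 0. Cytosolic ribosomal proteins, the largest list with 145 members, had a median of 0.01, with 2 higher and 2 lower. Over all members, 5196 of 10021 differences were above 0 and 2.66% were 2-fold, so 0 of 21 aquaporins is near that share.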
